A study of Homo sapiens with 14 samples.

Results

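The genes described here are RCAN1 and the other genes of the calcineurin-NFAT pathway that encode its core proteins. They are the 3 regulators of calcineurin (RCAN1, RCAN2, RCAN3), the 3 catalytic subunits of calcineurin (PPP3CA, PPP3CB, PPP3CC), its regulatory subunit PPP3R1 and the transcription factors NFATC1, NFATC3 and NFATC4. RCAN1 was chosen by its read counts, which were higher with the miR-34a-RS duplex than after transfection of miR-34a-WT. The other genes were added for their roles beside it. The set holds 10 of the 63140 genes in the count table, and all 10 had enough reads to be tested.

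RNA-seq was done on HEK293T cells, a human embryonic kidney line transformed by adenoviral DNA and given SV40 large T antigen, harvested 24 h after 1 of 3 RNAs was transfected. The control cells (n = 5) received the AllStars negative control siRNA from Qiagen. The miR-34a-WT cells (n = 5) received a duplex with the natural miR-34a guide strand. The miR-34a-RS cells (n = 4, replicates 1, 2, 3 and 5) received the same duplex with residues 13 and 14 of the guide replaced by rSpacer, an abasic unit that has a sugar-phosphate backbone and no base. All groups were thus transfected, and both miRNA groups were set against a foreign siRNA rather than against untreated cells. The libraries come from a single cell line, and the labels do not say whether replicates were separate cultures. The p-values thus rest on a spread between libraries that may be technical.

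Calcineurin is the calcium- and calmodulin-activated phosphatase of the cell, made of 1 catalytic and 1 regulatory subunit. It removes phosphates from the cytoplasmic NFAT proteins, which then enter the nucleus and switch on genes, and kinases such as GSK3 and DYRK return them to the cytoplasm. RCAN proteins bind calcineurin and dampen its activity. RCAN1 lies on chromosome 21 in the region linked to Down syndrome, and a short RCAN1 transcript is itself switched on by NFAT. A miRNA finds its targets by pairing of the seed, guide residues 2 to 8, with the 3′ UTR of an mRNA, and residues 13 to 16 can add pairing at some sites.

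The guide is shown because its seed sets the matches searched below and because the 2 positions made abasic lie outside that seed. The first line has the seed in capitals and the second has the bases at the abasic positions in capitals. Both are the RefSeq mature sequence of MIR34A (GRCh38.p14, minus strand, chr1:9151735-9151756), 5′ to 3′.
miR-34a-5p, seed: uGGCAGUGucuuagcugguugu
miR-34a-5p, residues 13 and 14: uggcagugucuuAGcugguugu

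Matches were searched on the sense strand of the annotated coding transcripts (GENCODE 29, GRCh38) as CACTGCCA (8mer), CACTGCC (7mer-m8), ACTGCCA (7mer-A1) and ACTGCC (6mer), each position being given only its longest match. Over the 13611 tested genes with an annotated 3′ UTR, the best match in the longest 3′ UTR was an 8mer in 6.02%, a 7mer-m8 in 11.7%, a 7mer-A1 in 6.04% and a 6mer in 11.36%, and 64.88% had none. Among the 10 genes, RCAN1, PPP3R1 and NFATC4 had a match in the 3′ UTR and the other 7 had none. The 30 bases that end with each 8mer or 7mer of these 3 genes are given below, with the match in capitals. An AGC upstream of an 8mer or 7mer-m8 could pair with guide residues 14 to 16. It is also in capitals where the search found it within 16 bases of the match.
RCAN1, 8mer, minus strand, chr21:34517280-34517309: acaattcagagaatAGCagtttCACTGCCA
PPP3R1, 7mer-A1, minus strand, chr2:68180242-68180271: aggagaaagtctagttcattgctACTGCCA
PPP3R1, 7mer-A1, minus strand, chr2:68179194-68179223: tggtttgaactgttccagtgtcaACTGCCA
NFATC4, 7mer-m8, plus strand, chr14:24379286-24379315: ccccttcAGCcccctgccagagtCACTGCC
NFATC4, 8mer, plus strand, chr14:24379460-24379489: actattctgttttctgccaggaCACTGCCA
The RCAN1 match starts at base 797 of a 3′ UTR of 1639 bases and is held by 9 of the 10 coding transcripts. The PPP3R1 matches start at bases 715 and 1763 of a 3′ UTR of 2106 bases and are held by 1 of its 3 coding transcripts. NFATC4 also has a 6mer at base 677 of its 3′ UTR of 2661 bases, where the 7mer-m8 starts at base 2366 and the 8mer at base 2539, and 8 of its 24 coding transcripts hold them. The full partner of residues 13 to 16, AGCT, was searched within 15 bases of 8mer and 7mer-m8 matches only. It was found beside none of those in these 3 genes. Over the tested genes, 1.64% had an 8mer or 7mer-m8 with AGCT in that window. The matches are letters found by search and say nothing of binding in these cells.

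**Figure D1:**
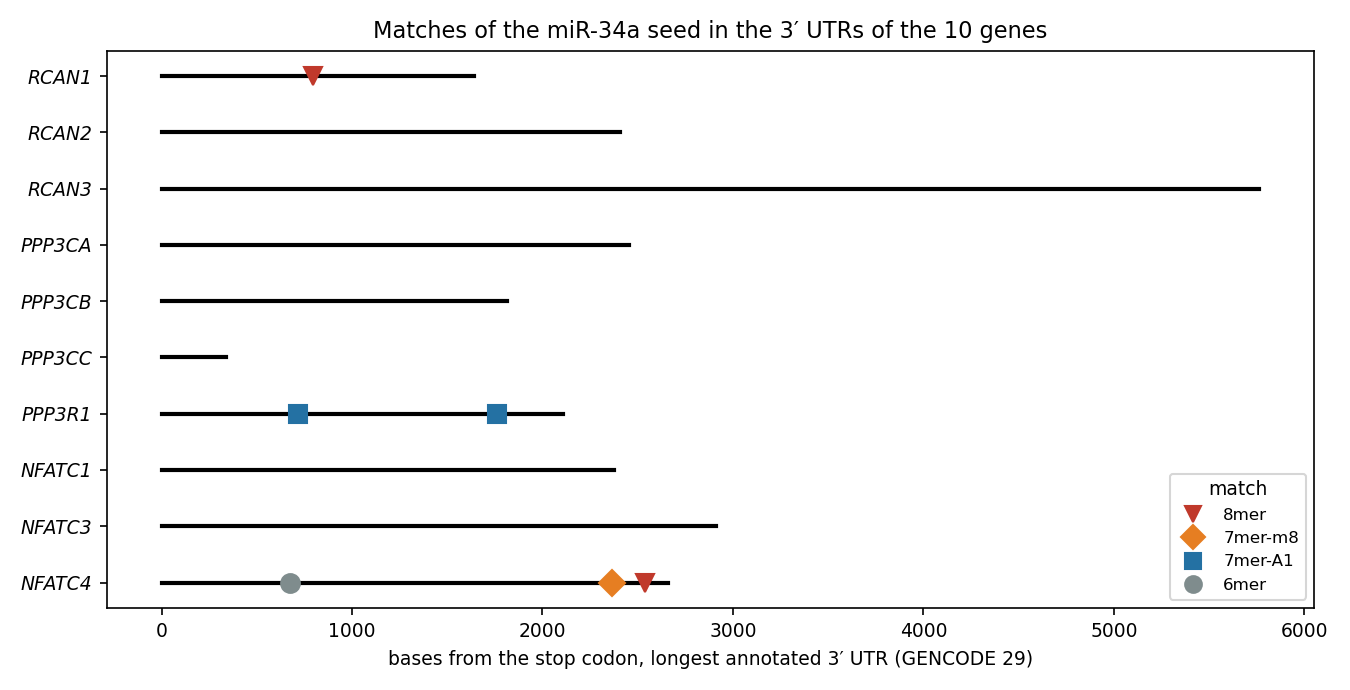
Matches of the miR-34a seed along the longest annotated 3′ UTR of each gene (GENCODE 29). The horizontal axis is the distance from the stop codon in bases, each line is a 3′ UTR, and symbols mark the 4 kinds of match. RCAN1 has 1 match, PPP3R1 has 2 and NFATC4 has 3, and the lines of the other 7 genes carry no symbol.

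Libraries held 22.24 to 36.26 M counted reads. All 8 genes fixed as markers of HEK293T were detected in every library, with summed levels of 468 to 538 CPM (counts per M reads). The blood markers PTPRC, CD3E and CD2 and the muscle markers MYH7 and TNNT2 were at or near 0 CPM. The summed level of the 4 muscle markers was 12.5 to 15.7 CPM in the controls, 11 to 12.9 CPM with miR-34a-WT and 10.3 to 11.5 CPM with miR-34a-RS, nearly all of it ACTN2, and its part in the results was not tested. Levels below are CPM scaled by the TMM method, given with the SD over libraries. A log2 fold change, its standard error (SE) and its adjusted p come from edgeR's quasi-likelihood test over all 18321 tested genes, with Benjamini-Hochberg adjustment and a threshold of 0.05. In bulk RNA, fewer transcripts per cell and fewer cells with the transcript cannot be told apart.

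RCAN1 (chr21:34513142-34615142, minus strand; positions here and below are of GENCODE 29, GRCh38) fell with both duplexes. Its level was 38.6, 36.01, 38.4, 36.7 and 37.1 CPM in the 5 control libraries. It was 19.9, 18.6, 16.8, 18.4 and 17.9 CPM in the 5 miR-34a-WT libraries. In miR-34a-RS replicates 1, 2, 3 and 5 it was 31.1, 31.9, 27.9 and 27.8 CPM. The 3 groups did not overlap, and every miR-34a-RS library lay between the lowest control and the highest miR-34a-WT library. The gap between the duplexes is the one by which RCAN1 was picked. The means were 37.4 ± 1.10, 18.3 ± 1.15 and 29.7 ± 2.14 CPM (SD, n = 5, 5 and 4). RCAN1 thus stood at 49.0% of its control level in the first miRNA group and at 79.4% in the second, whose fall was 40.4% as large.

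Against the control, RCAN1 fell by 1.03 on the log2 scale with miR-34a-WT (SE 0.055, adjusted p = 1.03e-13, edgeR). It fell by 0.33 with miR-34a-RS (SE 0.056, adjusted p = 3.86e-05, edgeR). Since the miRNA libraries also served to choose RCAN1, these tests are not independent of that choice. The difference between both duplexes is the one by which RCAN1 was picked and is given with no test. It was 0.70 on the log2 scale, and by replicate number it was 0.64, 0.78, 0.73 and 0.63 for replicates 1, 2, 3 and 5. The AGC of the RCAN1 site shown above ends 5 bases before its 8mer. Of the 3013 8mer and 7mer-m8 matches in tested genes, 25.29% have an AGC in the stretch searched.

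The 820 tested genes with an 8mer as their best match give the setting for RCAN1. Their median log2 fold change was -0.22 with miR-34a-WT, with quartiles of -0.51 and 0.01, and 52.2% were called lower. With miR-34a-RS their median was -0.20 and 50.1% were called lower. Between the duplexes their median was 0.00, with quartiles of -0.07 and 0.08. RCAN1 therefore lay below the lower quartile of this class with miR-34a-WT and between its quartiles with miR-34a-RS. Since RCAN1 was picked by the difference between the duplexes, its place with each is not independent of that choice.

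RCAN3 (chr1:24502351-24541040, plus strand), a paralogue of RCAN1 that also binds calcineurin, rose with both duplexes. Its level was 25.9, 25.4, 26.3, 23.6 and 22.5 CPM in the controls and 33.4, 29.6, 29.4, 28.1 and 28.0 CPM with miR-34a-WT. In the 4 miR-34a-RS libraries it was 33.2, 27.7, 29.3 and 26.4 CPM. Every miRNA library exceeded every control library, by a small margin for miR-34a-RS replicate 5. The rise was 0.26 on the log2 scale with miR-34a-WT (SE 0.064, adjusted p = 0.00194, edgeR) and 0.23 with miR-34a-RS (SE 0.068, adjusted p = 0.00836, edgeR). Between the duplexes the difference was -0.03, with a 95% interval of -0.16 to 0.11. RCAN3 was the lower with miR-34a-RS in 4 of 4 pairs of the same number, and with the replicate block the difference was -0.05 (SE 0.043, adjusted p = 0.559, edgeR). RCAN3 overlaps the lincRNA NCMAP-DT on the opposite strand over 1075 exonic bases, and strand is not marked by the library kit, so reads from that stretch could belong to either gene.

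RCAN2 (chr6:46220736-46491972, minus strand), the third member of the family, was the lowest of the 10 genes, with 1.08 to 1.54 CPM in the controls, 1.52 to 2.32 CPM with miR-34a-WT and 1.58 to 1.70 CPM with miR-34a-RS. Its miR-34a-RS libraries lay above all controls, yet neither difference from the control passed the test. The log2 fold change was 0.29 with miR-34a-WT (SE 0.14, adjusted p = 0.100, edgeR) and 0.24 with miR-34a-RS (SE 0.15, adjusted p = 0.208, edgeR). At this level the fit left an interval of -0.34 to 0.24 for the difference between the duplexes.

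**Figure D2:**
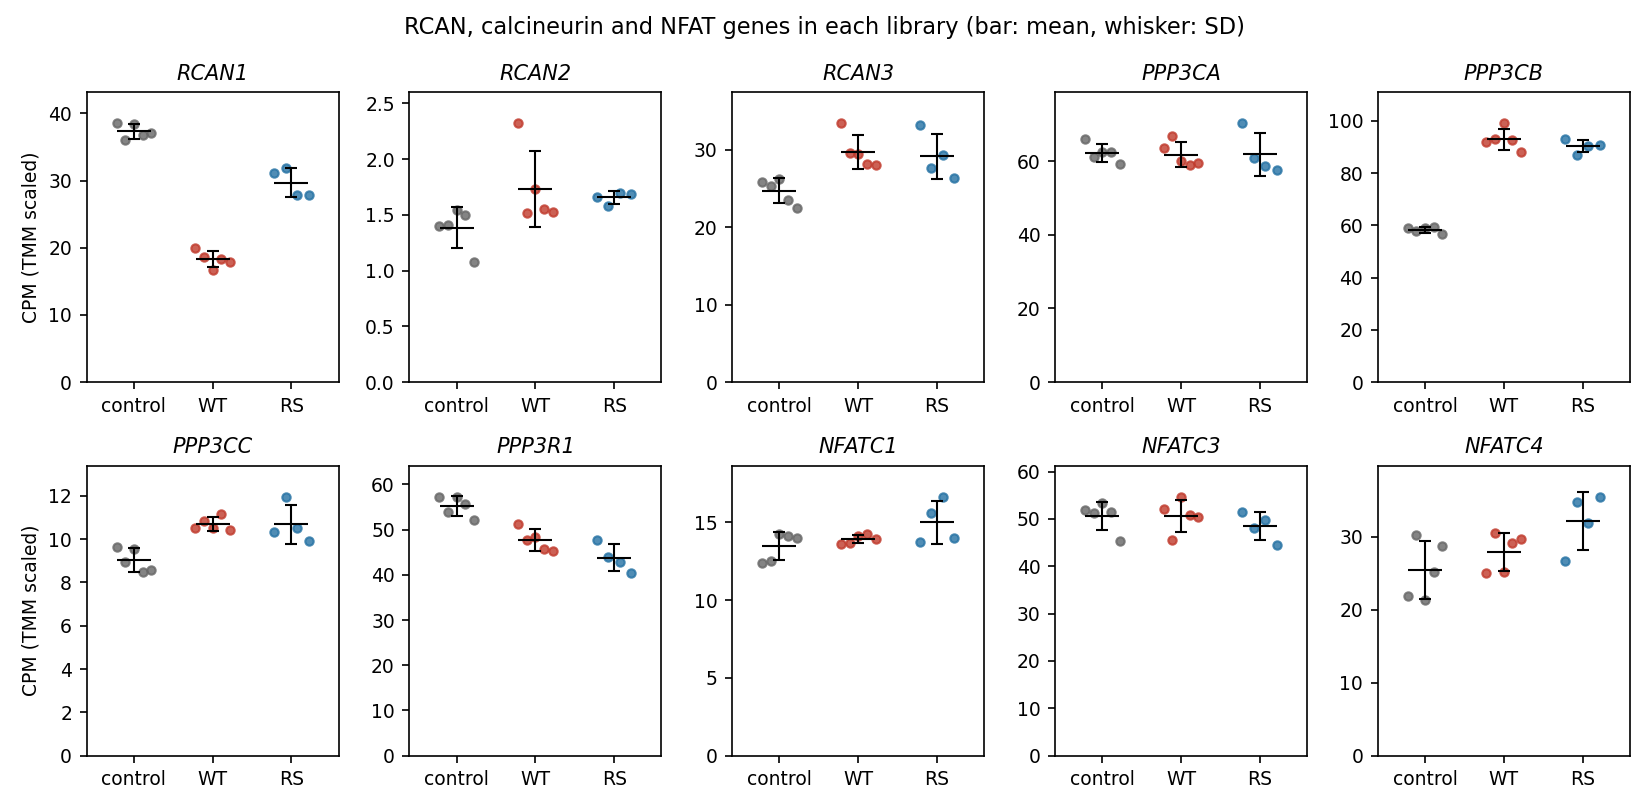
Level of each of the 10 genes in every library, in CPM scaled by TMM, from 0 on a linear axis of its own in each panel. Points are libraries of the control, miR-34a-WT and miR-34a-RS groups, bars are means and whiskers are SD. RCAN1, picked by its gap between the duplexes, takes 3 separate levels (37.4, 18.3 and 29.7 CPM). PPP3CB takes 1 level in the controls (58.4 CPM) and a higher one in both miRNA groups (93.0 and 90.3 CPM).

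PPP3CB (chr10:73436428-73496024, minus strand), the beta catalytic subunit of calcineurin, rose with both duplexes and had the largest rise of the 10 genes. Its level was 58.9, 57.8, 59.2, 59.4 and 56.7 CPM in the controls. It was 91.8, 93.2, 99.2, 92.5 and 88.1 CPM with miR-34a-WT and 92.9, 87.1, 90.5 and 90.9 CPM with miR-34a-RS. The lowest miRNA library was far above the highest control, and both miRNA groups overlapped. The rise was 0.67 on the log2 scale with miR-34a-WT (SE 0.042, adjusted p = 1.93e-12, edgeR). With miR-34a-RS it was 0.63 (SE 0.044, adjusted p = 2.33e-11, edgeR). The difference between the duplexes was -0.04, with a 95% interval of -0.13 to 0.05. PPP3CB has no seed match in its 3′ UTR of 1814 bases, and its coding sequence holds a 6mer. This is not particular to it, as PPP3CA, NFATC1 and NFATC3 also hold a coding 6mer and PPP3CC holds a 6mer in the 5′ UTR.

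PPP3CA (chr4:101023409-101348278, minus strand), the alpha catalytic subunit, did not pass the test in any comparison. It had 59.2 to 65.9 CPM in the controls, 59.0 to 66.8 CPM with miR-34a-WT and 57.6 to 70.3 CPM with miR-34a-RS. Its log2 fold change was -0.01 with each duplex (adjusted p = 0.878 with miR-34a-WT and 0.909 for miR-34a-RS, edgeR). The interval of the difference between the duplexes was -0.12 to 0.12.

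PPP3CC (chr8:22440819-22541142, plus strand), the gamma catalytic subunit, is the least abundant of the 3. It had 8.47 to 9.63 CPM in the controls, 10.4 to 11.2 CPM with miR-34a-WT and 9.91 to 12 CPM with miR-34a-RS, with no overlap between controls and miRNA libraries. The rise was 0.24 on the log2 scale with miR-34a-WT (SE 0.067, adjusted p = 0.00533, edgeR) and 0.24 with miR-34a-RS (SE 0.070, adjusted p = 0.00970, edgeR). Without miR-34a-RS replicate 2 the latter was 0.18 with an adjusted p of 0.0612. An antisense gene overlaps PPP3CC over 298 exonic bases, with 329 reads in all against 4389 for PPP3CC.

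PPP3R1 (chr2:68178857-68256237, minus strand), the regulatory subunit calcineurin B, fell with both duplexes. Its level was 57.2, 53.9, 57.3, 55.7 and 52.2 CPM in the controls. It was 51.3, 47.6, 48.4, 45.8 and 45.4 CPM with miR-34a-WT and 47.8, 44.0, 42.9 and 40.5 CPM with miR-34a-RS. Every miRNA library lay below every control library. The log2 fold change was -0.21 with miR-34a-WT (SE 0.050, adjusted p = 0.00114, edgeR). It was -0.34 with miR-34a-RS (SE 0.053, adjusted p = 1.67e-05, edgeR). The 822 genes whose best match is a 7mer-A1, as in PPP3R1, had median log2 fold changes of -0.06 and -0.08, with 33.6% and 35.0% called lower. PPP3R1 shares 462 exonic bases with a gene on its own strand (9 reads in all). It shares 700 with an antisense gene (0 reads), against 21312 reads for PPP3R1.

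Between the duplexes PPP3R1 was the lower with miR-34a-RS in 4 of 4 pairs of the same replicate number. Without the pairing the log2 difference was -0.12, with a 95% interval of -0.23 to -0.01 and an adjusted p of 0.338 by edgeR. With the replicate number as a block it was -0.14 (SE 0.038, adjusted p = 0.0102, edgeR), past the threshold. RCAN1 was the higher with miR-34a-RS in 4 of 4 pairs, but it was picked by that difference. Its opposite direction is thus no result beside PPP3R1.

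NFATC4 (chr14:24365673-24379604, plus strand), a member of the cytoplasmic NFAT family, varied most between control libraries among the genes above 10 CPM. Its level was 21.8, 30.2, 21.3, 25.2 and 28.8 CPM in the controls and 25.1, 30.5, 25.1, 29.1 and 29.7 CPM with miR-34a-WT. In miR-34a-RS replicates 1, 2, 3 and 5 it was 26.6, 34.7, 31.8 and 35.5 CPM. The groups overlapped, and replicates 1 and 3 were the lowest in the control and miR-34a-WT groups. The log2 fold change against the control was 0.13 with miR-34a-WT (SE 0.097, adjusted p = 0.292, edgeR). With miR-34a-RS NFATC4 rose by 0.34 (SE 0.10, adjusted p = 0.0124, edgeR).

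Between the duplexes NFATC4 was higher with miR-34a-RS in 4 of 4 pairs of the same number. The log2 difference was 0.20 without the pairing, with a 95% interval of -0.01 to 0.41 and an adjusted p of 0.429 by edgeR. With the replicate block it was 0.23 (SE 0.045, adjusted p = 0.0003, edgeR). NFATC4 thus had the 8mer and the 7mer-m8 printed above and no fall against the control that passed the test.

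NFATC1 (chr18:79395856-79529325, plus strand) had 12.4 to 14.3 CPM in the controls, 13.6 to 14.3 CPM with miR-34a-WT and 13.8 to 16.6 CPM with miR-34a-RS. NFATC1 is the NFAT gene whose short transcript is induced by NFAT itself in T cells. Its log2 fold change was 0.05 with miR-34a-WT (adjusted p = 0.583, edgeR) and 0.16 with miR-34a-RS (SE 0.067, adjusted p = 0.0733, edgeR). The latter passed the threshold when libraries were scaled by the upper quartile or by their totals. Between the duplexes NFATC1 was the higher with miR-34a-RS in 4 of 4 pairs, with a log2 difference of 0.12 with the block (SE 0.057, adjusted p = 0.176, edgeR). NFATC3 (chr16:68084751-68229259, plus strand), the most abundant NFAT gene of the set, did not pass the test in any comparison, with 45.4 to 53.3 CPM in the controls, 45.5 to 54.7 CPM with miR-34a-WT and 44.5 to 51.5 CPM with miR-34a-RS. Its log2 fold changes against the control were 0.00 (adjusted p = 0.995, edgeR) and -0.06 (adjusted p = 0.422, edgeR). NFATC3 shares 149 exonic bases with ESRP2 on the opposite strand, which makes its level uncertain by reads from that stretch. It also shares 2796 with an antisense gene (0 reads in all) and 1385 with a gene on its own strand (180 reads).

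**Figure D3:**
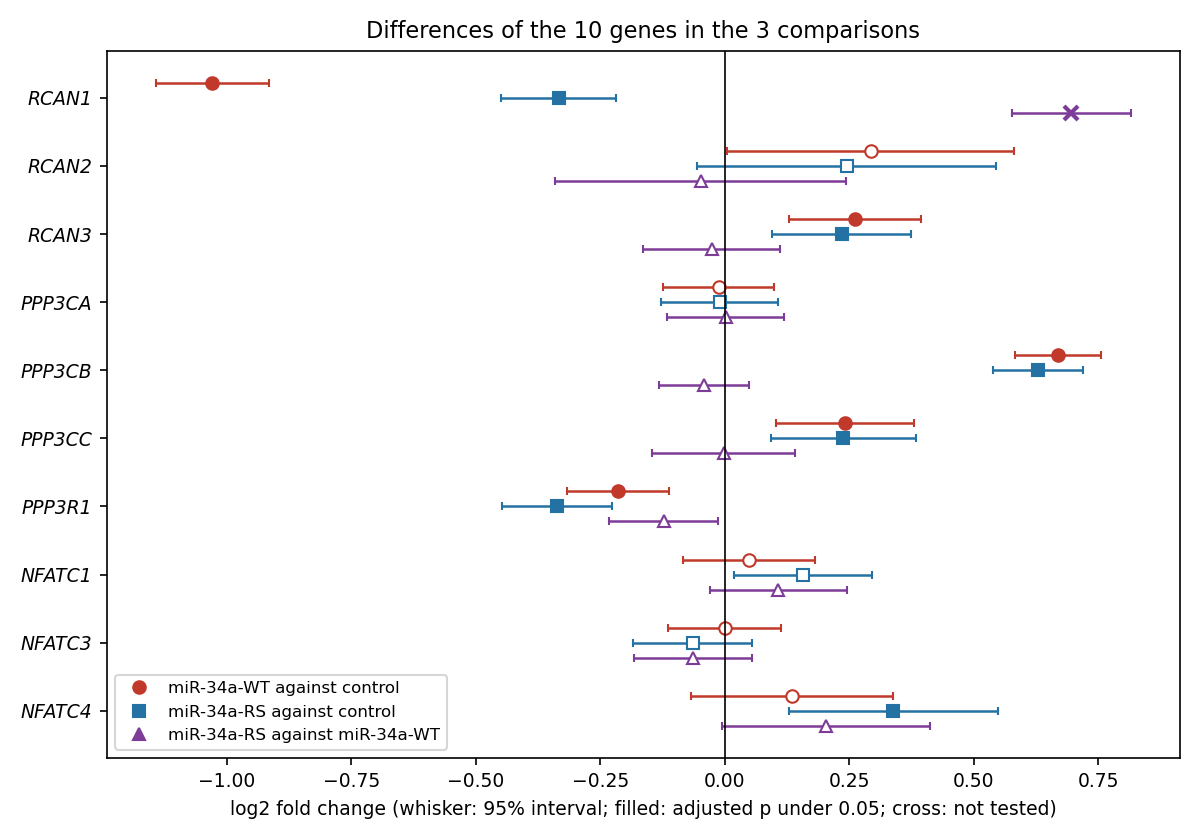
Log2 fold change of each of the 10 genes in the 3 comparisons, with the 95% interval as a whisker. All values are from the fit without the replicate block. Filled symbols passed an adjusted p of 0.05, open symbols did not, and the cross marks the difference by which RCAN1 was picked. Relative to the control, RCAN1 and PPP3R1 lie left of 0 with both duplexes and PPP3CB lies farthest right (0.67 and 0.63).

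With miR-34a-WT, 3 of the 10 genes rose (RCAN3, PPP3CB, PPP3CC) and 2 fell (RCAN1, PPP3R1), where 18.9% of all tested genes were called higher and 21.3% lower (40.2% in all). With miR-34a-RS, 4 rose (the same 3 and NFATC4) and 2 fell (RCAN1, PPP3R1), where 16.2% of all tested genes were called higher and 18.4% lower (34.6% in all). With a background this high, the number of members called is not in itself a result about them. The median log2 fold change of the 10 was 0.09 and 0.20, against -0.02 and -0.01 over all tested genes. The comparisons share their control libraries.

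Between the duplexes, where 1.56% of all tested genes were called, none of the 9 genes other than RCAN1 passed the threshold by edgeR or DESeq2. At an unadjusted p under 0.05 edgeR had 1 of the 9, PPP3R1, and DESeq2 had 2. With the replicate block, NFATC4 rose and PPP3R1 fell, where 13.3% of all tested genes were called.

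Levels of different genes were compared per kilobase of exon, with no correction for stretches shared with other genes. In the controls PPP3R1 was highest at 16.4 CPM per kilobase, followed by PPP3CA at 11.9 and PPP3CB at 11.5, whose ranges overlapped. NFATC3 at 5.75 and RCAN1 at 5.35 CPM per kilobase came next, with overlapping ranges. RCAN3 at 3.49, PPP3CC at 3.11 and NFATC4 at 3.02 overlapped with their neighbours, and NFATC1 at 1.48 and RCAN2 at 0.373 CPM per kilobase stood apart below them. With miR-34a-WT, PPP3CB was first at 18.3 and RCAN1 had dropped to 2.62 CPM per kilobase, above NFATC1 and RCAN2 alone. With miR-34a-RS, RCAN1 at 4.24 CPM per kilobase overlapped with RCAN3 at 4.12, and PPP3CB was again first at 17.7.

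Ratios within a library describe the make-up of both families and are given with no test. RCAN1 was picked by its difference between the duplexes. In every ratio, share or sum below that holds RCAN1, that difference is thus not a separate result. RCAN1 to RCAN3, in CPM per kilobase, was 1.53 ± 0.091 in the controls, 0.625 ± 0.034 with miR-34a-WT and 1.04 ± 0.10 for miR-34a-RS (SD, n = 5, 5 and 4). RCAN1 thus made up 58.1%, 36% and 48.2% of the summed RCAN level in the 3 groups. The summed level itself was 9.21 ± 0.36, 7.29 ± 0.53 and 8.81 ± 0.60 CPM per kilobase.

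PPP3CB to PPP3CA was 0.915 to 0.980 in the control libraries, 1.43 to 1.69 with miR-34a-WT and 1.35 to 1.62 with miR-34a-RS. The beta subunit made up 43.2% of the catalytic sum in the controls, 54.0% with miR-34a-WT and 53.3% for miR-34a-RS. PPP3R1 to the catalytic sum was 0.619 ± 0.0092 in the controls, 0.420 ± 0.018 with miR-34a-WT and 0.391 ± 0.013 for miR-34a-RS. RCAN1 to the catalytic sum was 0.202 ± 0.0049, 0.0776 ± 0.0054 and 0.128 ± 0.0077. These are ratios of mRNA, and protein was not measured.

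**Figure D4:**
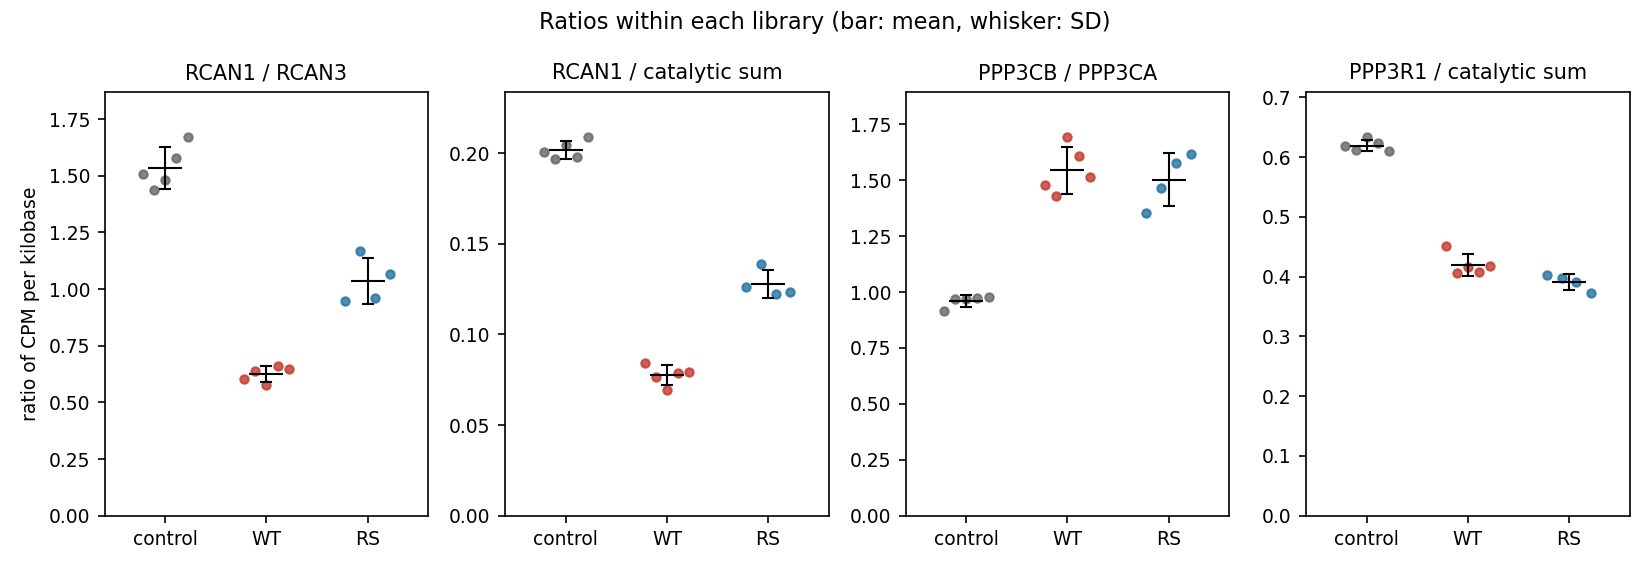
Ratios of CPM per kilobase within each library, on linear axes from 0. Points are libraries, bars are means and whiskers are SD. Both ratios with RCAN1 take 3 separate levels, but RCAN1 was picked by its gap between the duplexes. The PPP3CB to PPP3CA ratio is higher in both miRNA groups (1.54 and 1.5) than in the controls (0.960), and the PPP3R1 ratio is lower in them.

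The rest of the pathway was read from a list of 55 genes by role, of which 50 were tested. With miR-34a-WT 7 rose and 21 fell, and with miR-34a-RS 8 rose and 19 fell. Over all tested genes 18.9% were called higher and 21.3% lower with the first duplex, and 16.2% higher and 18.4% lower with the second, the shares against which the counts by role below are to be read. Scaling by the upper quartile or by library totals left 14 of the 50 lower with miR-34a-RS, as DYRK2, CSNK1A1, CHP1, PPIA and JUN lost their calls. The median log2 fold change of the 50 was -0.12 with each duplex. Genes of the list are named by a rule of at most 3 per role, and any further gene was named after its values were seen.

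NFAT5, the NFAT relative that calcineurin does not control, rose with both duplexes, by 0.25 and 0.29 on the log2 scale. Its calls were lost without control replicate 5 in both comparisons. They were also lost without control replicate 3 or miR-34a-WT replicate 1 or 5 in the first, and without miR-34a-RS replicate 1 or 5 in the second.

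Calmodulin, the calcium sensor that activates calcineurin, is encoded by 3 genes. Of these, 2 rose with each duplex, where 18.9% and 16.2% of all tested genes were called higher. CALM3, the most abundant at 529 CPM in the controls, had log2 fold changes of 0.01 and 0.02 (adjusted p = 0.877 and 0.779, edgeR). CALM2 rose with both duplexes. It was at 314 ± 16.5 CPM in the controls, 405 ± 13.9 with miR-34a-WT and 373 ± 5.45 for miR-34a-RS, log2 fold changes of 0.37 and 0.25.

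Of the 9 genes for calcium entry and release, 1 rose and 4 fell with each duplex, where 40.2% and 34.6% of all tested genes were called in either direction. ORAI2, a plasma membrane calcium channel subunit, rose from 42.6 ± 2.38 CPM to 78.6 ± 4.53 and 80.2 ± 7.05 CPM, log2 fold changes of 0.89 and 0.92. STIM1, the calcium sensor of the endoplasmic reticulum that opens ORAI channels, fell from 58.0 ± 4.98 CPM to 39.7 ± 1.66 and 39.4 ± 1.85 CPM, by 0.55 and 0.56 on the log2 scale. PLCG1, the phospholipase that makes the second messenger IP3, fell by 0.32 and 0.34. The IP3 receptor genes ITPR1 and ITPR3 fell as well. The best 3′ UTR match was an 8mer in PLCG1, a 7mer-m8 in ITPR3, a 7mer-A1 in ITPR1 and a 6mer in STIM1. ORAI2 had none. ORAI2, PLCG1 and ITPR3 overlap other genes on the opposite strand, ALKBH4, ZHX3 and UQCC2, so part of their reads is uncertain.

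Among the 7 kinases that return NFAT to the cytoplasm, DYRK1A, which lies on chromosome 21 as RCAN1 does, rose by 0.47 with miR-34a-WT and 0.42 for miR-34a-RS. GSK3A rose with miR-34a-WT (0.16), and DYRK2 and CSNK1A1 fell with miR-34a-RS. The best 3′ UTR match was a 7mer-m8 in DYRK1A and a 7mer-A1 in DYRK2 and CSNK1A1, and GSK3A had none. The call of GSK3A was lost without control replicate 1 or 2 or miR-34a-WT replicate 3 or 4. Those of DYRK2 and CSNK1A1 were each lost on leaving out any of 7 of the 9 libraries, DYRK2 holding without control replicate 5 or miR-34a-RS replicate 1, and CSNK1A1 without control replicate 5 or miR-34a-RS replicate 2.

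Of the 7 tested anchors and inhibitors of calcineurin, 0 rose, 4 fell with miR-34a-WT (AKAP1, CHP1, PPIA, CABIN1) and 3 with miR-34a-RS (AKAP1, CHP1, PPIA), where 21.3% and 18.4% of all tested genes were called lower. AKAP1, which anchors signalling enzymes at the mitochondrion, fell from 214 ± 1.34 CPM to 172 ± 3.49 and 170 ± 5.86 CPM, by 0.32 and 0.34. CHP1, a calcineurin B-like protein, fell by 0.20 with the first duplex and 0.14 with the second. Its second call was lost on leaving out control replicate 2, 3 or 4 or miR-34a-RS replicate 2, 3 or 5. The call of CABIN1 was lost without control replicate 2, 4 or 5 or miR-34a-WT replicate 2, 3 or 4. AKAP1, CHP1, PPIA and CABIN1 have no seed match in their longest 3′ UTR. PPIA, the cyclophilin through which cyclosporin inhibits calcineurin, had log2 fold changes of -0.14 and -0.15, called in both. The call of PPIA was lost without control replicate 1 in both comparisons, without miR-34a-WT replicate 3 or 4 in the first and without miR-34a-RS replicate 1 or 3 in the second.

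Of the 13 other substrates and nuclear partners of NFAT, 1 rose and 6 fell with miR-34a-WT, and 3 rose and 6 fell with miR-34a-RS, where 40.2% and 34.6% of all tested genes were called. They included the CREB coactivators CRTC1, CRTC2 and CRTC3, which calcineurin dephosphorylates, and all 3 fell with both duplexes. CRTC2 fell from 75.3 ± 6.35 CPM to 45.1 ± 3.40 and 48.6 ± 3.55 CPM, by 0.74 and 0.63. CRTC3 fell by 0.67 and 0.50, and CRTC1 by 0.70 and 0.38. DNM1L, the mitochondrial fission GTPase, fell by 0.46 and 0.33. The best 3′ UTR match was an 8mer in DNM1L, a 7mer-m8 in CRTC1 and a 6mer in CRTC3, and CRTC2 had none. TFEB had a 7mer-m8, and MEF2A and MEF2C had none. The genes that rose were MEF2C with miR-34a-WT (0.18), and MEF2C (0.26), TFEB (0.32) and MEF2A (0.20) with miR-34a-RS. The first of these calls was lost without control replicate 1, 4 or 5 or miR-34a-WT replicate 1 or 3, and MEF2A overlaps LYSMD4 on the opposite strand. Among the falls counted, that of DNM1 with miR-34a-WT was lost without control replicate 2 or 5 or miR-34a-WT replicate 2 or 3, and that of MEF2D without control replicate 2. The fall of JUN with miR-34a-RS was lost without control replicate 2, 4 or 5 or miR-34a-RS replicate 1 or 3.

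Genes reported to respond to NFAT in other cells fell in 7 of 9 cases with miR-34a-WT and in 4 of 9 with miR-34a-RS, and 0 rose, where 21.3% and 18.4% of all tested genes were called lower. With the replicate block VEGFA also passed the threshold with miR-34a-WT (adjusted p = 0.0165, edgeR). CDKN1A then passed it with miR-34a-RS as well (adjusted p = 1.23e-06, edgeR). The 7 include EGR2 at 0.48 CPM in the controls and 0.28 CPM with miR-34a-WT (adjusted p = 0.0464, edgeR), whose call was lost without control replicate 2, 4 or 5 or miR-34a-WT replicate 1, 3 or 5. NR4A1, an early-response nuclear receptor, was at 9.93 ± 1.45 CPM in the controls and 6.91 ± 0.963 CPM with miR-34a-WT, a fall of 0.52 on the log2 scale (adjusted p = 0.000207, edgeR). With miR-34a-RS it was at 8.48 ± 0.813 CPM (log2 fold change -0.23, adjusted p = 0.0978, edgeR). MYC fell by 0.30 and 0.32, and ATP2B4, a plasma membrane calcium pump, by 0.23 and 0.22. NR4A2 and PTGS2, also among the 7, were low in the controls, at 3.70 and 3.01 CPM. The best 3′ UTR match was a 7mer-m8 in EGR2 and NR4A2 and a 6mer in MYC and ATP2B4. NR4A1, PTGS2 and CDKN1A had none. These genes also answer to many other factors, and NFAT activity was not measured.

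Between the duplexes 1 of the 50 genes, MEF2D, passed the threshold, and it was higher with miR-34a-RS by 0.27 (adjusted p = 0.036, edgeR). That call held on leaving out miR-34a-WT replicate 5 or miR-34a-RS replicate 1 and was lost on leaving out any of the other 7 libraries. With the replicate block 10 of the 50 were higher and 3 lower with miR-34a-RS, where 6.28% of all tested genes were called higher and 7.01% lower. The higher genes with the block included CRTC1 (0.33), CRTC2 (0.12), CRTC3 (0.17), MEF2D (0.28) and NR4A1 (0.28), and the lower ones were CALM2 (-0.12), DYRK2 (-0.18) and GSK3B (-0.13).

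**Figure D5:**
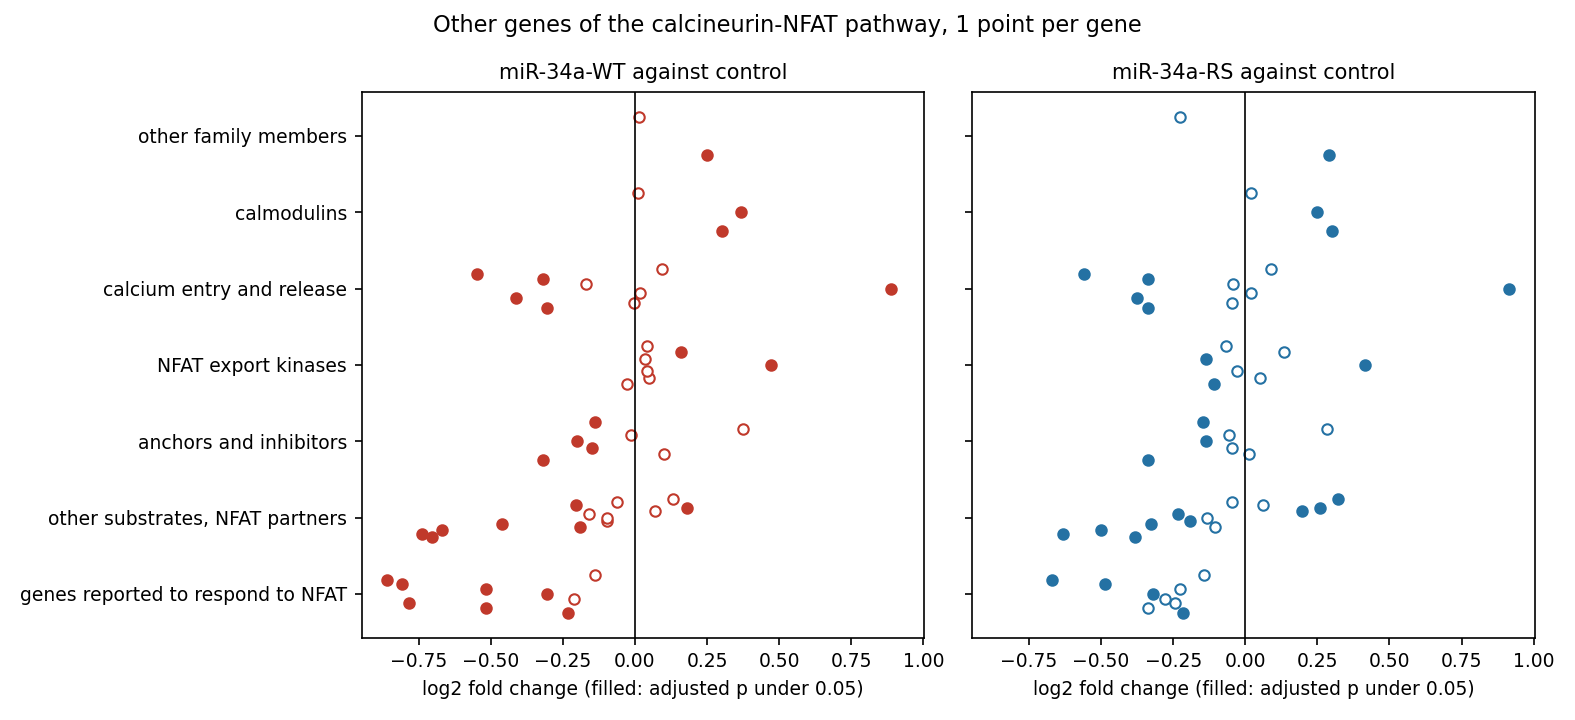
Log2 fold change of the 50 other pathway genes against the control, by role, for miR-34a-WT on the left and miR-34a-RS on the right. Each point is 1 gene, filled where its adjusted p was under 0.05. The vertical spread within a role only separates points. The genes reported to respond to NFAT lie left of 0 in both panels, 7 of 9 filled on the left and 4 of 9 on the right, and ORAI2 is the point farthest right (0.89 and 0.92).

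The genes whose levels followed RCAN1 most closely were found by the root-mean-square difference in log2 CPM over the 14 libraries, each gene centred on its control mean. PCOLCE2 was the nearest, at 0.087, with 21.5 ± 1.51, 10.7 ± 0.925 and 16.6 ± 0.126 CPM in the control, miR-34a-WT and miR-34a-RS groups. EPHB2 followed at 0.125, with 25.5 ± 1.04, 13.3 ± 0.91 and 19.2 ± 0.58 CPM. RBM38, at 0.143, had 59.3 ± 5.01, 28.5 ± 1.54 and 49.1 ± 3.89 CPM. PPP6C and LIMD2 came next, at 0.145 and 0.150. All 5 were lowest with miR-34a-WT and intermediate with miR-34a-RS, which their choice by likeness to RCAN1 makes them. Their best 3′ UTR matches were none for PCOLCE2, an 8mer as in RCAN1 for EPHB2 and LIMD2, a 6mer for RBM38 and a 7mer-A1 for PPP6C. Over the tested genes with a 3′ UTR, 6.02% had an 8mer as best match and 35.12% had any match. Whether the matches bear on the likeness was not tested. LIMD2 also has AGCT within 15 bases of its match, and it overlaps MAP3K3 on the opposite strand.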

How the data were processed

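Polyadenylated RNA was sequenced in 14 libraries. The authors deposited 1 table of raw counts, whole numbers of reads for each gene. The submitters' processing notes name build GRCh38, STAR 2.7.11a, Subread 2.0.3 with featureCounts, and edgeR 3.42.4. The annotation release and the strand setting of the counting are not given in the sources used here. The kit, TruSeq RNA v2 per the labels' protocols, does not mark strand.

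Counts were fitted with edgeR 4.0.16 in R 4.3.3 (TMM, filterByExpr by group, glmQLFit with robust dispersion, glmQLFTest) on all 14 libraries and 3 group means, which tested 18321 genes with a common biological coefficient of variation of 0.062. The script was tested on simulated data. Benjamini-Hochberg adjustment ran over all tested genes. CPM per kilobase used the exon length of GENCODE 29. Positions, 3′ UTRs and matches come from GENCODE 29, and the miRNA from RefSeq, where MIR34A was matched by name. No 2 replicates agreed within sampling noise (chi-square per degree of freedom of 2.51 to 12.6 over 26 pairs).

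The members and lists were chosen with earlier results of these data known. Of the 55 pathway genes, those called with at least 5 CPM were named, up to 3 per role by smallest p, and the 5 genes most like RCAN1 were named. All 10 members were named, and 1 listed gene is not reported here by name.

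The labels do not say what a replicate number marks. Deviations from the group means over 11259 genes correlated at 0.37 to 0.72 for same-numbered libraries of both miRNA groups, so those were taken as paired, and block values are given beside the results they change. For miR-34a-WT and the control the correlations were -0.16 to 0.56, with a mean of 0.29 against -0.07 for libraries of unlike number. For miR-34a-RS and the control they were 0.00 to 0.48, with a mean of 0.27 against -0.07. Those groups were not taken as paired, although the means leave some shared structure by number.

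The alternatives were DESeq2 1.42.0, upper-quartile scaling, library totals, no filter on low counts, a fit of the 2 groups compared only, the replicate block and leaving out each library.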

Additional observations from a re-analysis of the deposited data

Results flagged for a closer look

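In 3 of the 30 sets of 4 or 5 libraries examined (10 genes in 3 groups), 1 library stood apart from the rest of its group by Dixon's criterion, which chance meets in about 1 of 20 sets. RCAN2 was at 2.32 CPM in miR-34a-WT replicate 1, against 1.52 to 1.73 CPM in the other 4 libraries. RCAN3 was at 33.4 CPM in the same library, against 28.0 to 29.6 CPM. NFATC3 was at 45.4 CPM in control replicate 5, against 51.3 to 53.3 CPM in the other controls.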

How the results depend on the processing

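For the 10 members and the 50 pathway genes, no call by edgeR reversed its direction under the alternatives run. RCAN1 kept its direction and its side of the threshold in all of them, with log2 fold changes against the control of -1.06 to -0.98 and -0.37 to -0.30 on leaving out single libraries. The number of genes called between the duplexes (286) depended most on the processing. It was 2365 with the replicate block and 509 with DESeq2. On leaving out single libraries it ranged from 142 to 730, with 142, 143, 176 and 730 without miR-34a-RS replicate 3, 2, 5 and 1, and 151 and 175 without miR-34a-WT replicate 3 and 1. The number of members called in that comparison was 1, which is RCAN1 and was fixed by its choice, and 3 with the replicate block, or 0 and 2 of the other 9. The cause was not tested. Against the control the replicate block, where the numbers were not taken as pairs, added NFATC4 with miR-34a-WT (0.14, adjusted p = 0.0195) and NFATC1 with miR-34a-RS. NFATC1 with miR-34a-RS also passed the threshold without control replicate 3 or miR-34a-RS replicate 1 or 5. Outside single-library omissions, pathway calls lost were those of PPIA and EGR2 (no filter), NFAT5 (replicate block) and EGR2 (DESeq2) with miR-34a-WT. With miR-34a-RS they were those of DYRK2, CSNK1A1, CHP1 and PPIA (no filter, upper quartile, library totals), JUN (both scalings), CSNK1A1 and CHP1 (2 groups only) and CSNK1A1 (replicate block). Pathway calls were also gained. With the replicate block, 6 of 49 pathway genes were higher and 24 lower with miR-34a-WT. With miR-34a-RS, 9 were higher and 19 lower. RCAN2 had few reads and a wide interval.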
